A study of Mus musculus with 8 samples.

Results

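The 2 single treatments of the series were set directly against each other here: mice that received α-ketoglutarate (AKG) alone and mice that received α-synuclein alone, delivered by an adeno-associated virus (AAV). Both groups are male C57BL/6 mice, and the tissue of every library is labelled substantia nigra, the midbrain nucleus whose dopamine neurons degenerate in Parkinson's disease. The AKG group is labelled with AKG only, and the series title places AKG in the diet. The vector group is labelled AAV-α-synuclein. Each group has 2 libraries, so 4 of the 8 libraries of the series enter the comparison. The other 4 are 2 wild-type control libraries and 2 libraries from mice given both treatments, and they are used only as values beside the comparison. The labels give neither dose, duration, age, serotype, promoter nor the species of the α-synuclein, and they do not say whether the AKG mice received an empty vector. They also do not say whether the 2 libraries of a group came from separate animals. The p-values below thus rest on a spread between samples that may not be a spread between animals.

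AKG is an intermediate of the tricarboxylic acid (TCA) cycle, made from isocitrate or glutamate, and a substrate of a large family of dioxygenases that hydroxylate proteins and demethylate histones, DNA and RNA. α-Synuclein is a presynaptic protein that forms the aggregates of Parkinson's disease, and AAV delivery of it to the midbrain is a standard way to model the loss of nigral dopamine neurons. Those neurons make dopamine with tyrosine hydroxylase (Th) and aromatic amino acid decarboxylase (Ddc), load it into vesicles with the transporter Slc18a2 and take it back up with the transporter Slc6a3.

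RNA sequencing values were in FPKM, reads scaled by gene length and by library size. The 4 libraries held 16544190 to 18472795 reads assigned to genes, and 1 read on a gene of 1 kilobase was worth 0.0542 to 0.0590 FPKM. The test took the 13716 of 54532 genes whose 8-library mean reached 1 FPKM. The label substantia nigra was checked against marker genes. The 9 dopamine neuron markers summed to 73.4 and 74.0 FPKM in the vector libraries and 62.2 and 71.5 in the AKG libraries, and to 148.5 and 149.6 in the control libraries. The hypothalamic peptide genes Avp, Oxt, Pmch and Hcrt together stood higher than these, at 937 and 962 FPKM in the vector libraries and 1157 and 406 in the AKG libraries. Markers of choroid plexus, the epithelium that secretes cerebrospinal fluid, summed to 51.7 and 1991 FPKM in the vector libraries and 1361 and 2509 in the AKG libraries. Control library 1, used here only for levels, was the least similar library of the 8, with a mean Spearman rho of 0.926 to the others against at least 0.971 for each of the other 7. The libraries thus held transcripts of neighbouring structures in amounts that differed within groups.

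No gene differed between AKG and the vector at an adjusted p under 0.05 (limma on log2(FPKM + 1), two-sided, Benjamini-Hochberg over 13716 genes), that is 0% of the genes tested, and the smallest adjusted p was 0.631. Limma's voom on the recovered reads also called 0 genes, with 420 at an unadjusted p under 0.05. In the fit on log2(FPKM + 1), 469 genes had an unadjusted p under 0.05, or 3.42%, fewer than the 686 that 5% of the genes tested would make. Of these 273 were higher with AKG (1.99%) and 196 lower (1.43%). Both AKG libraries lay above both vector libraries for 2264 genes (16.5%) and below both for 1911 (13.9%). The counts without overlap in the gene lists below are to be read beside these shares. With a log2 difference of at least 0.5 as well, 106 genes were higher (0.773%) and 84 lower (0.612%). An exact permutation test of 2 libraries against 2 cannot give a two-sided p below 0.333. The median log2 difference (AKG minus vector) over all tested genes was 0.010, and its 5th and 95th percentiles were -0.21 and 0.25. The 95% interval of the difference lay within -1 to 1 for 96.7% of genes and within 1.5-fold either way, -0.58 to 0.58, for 87.7%.

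The 2 groups were about as far apart as the 2 libraries of a group. The median absolute log2 difference between libraries was 0.112 within the vector group and 0.115 within the AKG group. Across the groups the 4 pairs gave 0.0912 to 0.131. The chi-square per degree of freedom of the recovered reads gave the same picture, with 10.5 and 10.9 within groups and 6.59 to 11.3 between them, so replicates differed by more than sampling noise. Longer genes read higher in some libraries and lower in others: over genes, Spearman's rho between gene length and the difference from the mean of these 4 libraries was -0.18 and 0.21 in the vector group and 0.23 and -0.28 in the AKG group, 1 library each way in both.

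**Figure D1:**
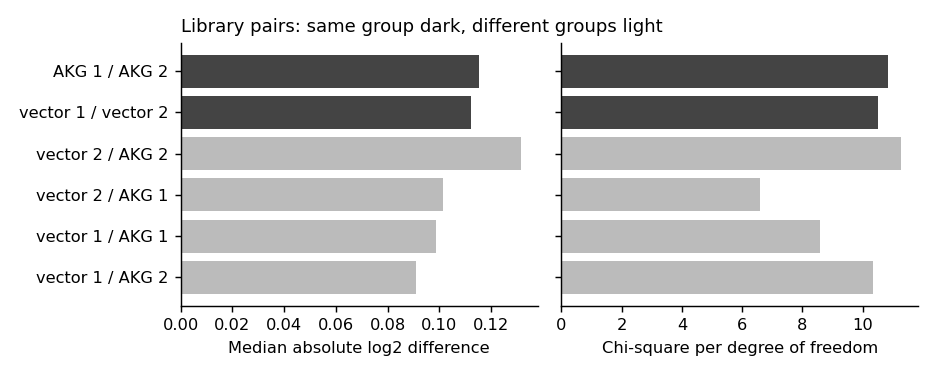
Median absolute log2 difference (left) and chi-square per degree of freedom of the recovered reads (right) for each pair of the 4 libraries. Dark bars are the 2 pairs within a group and light bars the 4 pairs across groups. The within-group pairs, at 0.112 and 0.115 on the left axis, lie inside the range of the across-group pairs, 0.0912 to 0.131.

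**Figure D2:**
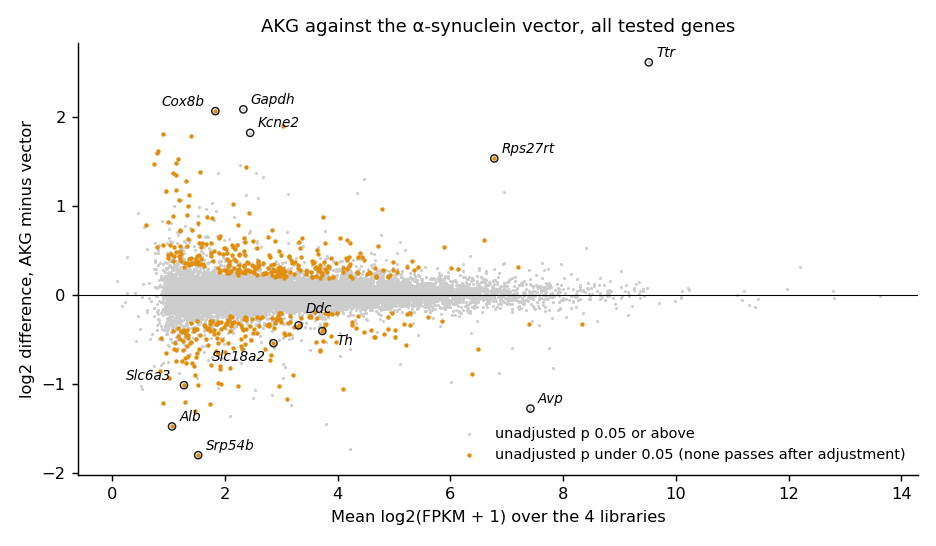
Difference between AKG and the α-synuclein vector, in log2, for each of the 13716 tested genes against its mean log2(FPKM + 1) over the 4 libraries. Orange points have an unadjusted limma p under 0.05, and circles mark genes described in the text. Th, Ddc, Slc18a2 and Slc6a3 lie below 0, and the largest positive difference among the circled genes, that of Ttr, is not among the orange points.

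Transcripts for making and moving dopamine lay lower with AKG alone than with the α-synuclein vector alone in 4 genes, none of which passed the adjusted test. Of 8 tested genes of dopamine synthesis and transport, 4 were lower in both AKG libraries than in both vector libraries and 0 were higher in both. Over all tested genes these shares were 13.9% and 16.5%. The same 4, Th, Ddc, Slc18a2 and Slc6a3, were those with an unadjusted limma p under 0.05, against 1.43% of all tested genes in this direction. The median difference of the 8 genes was -0.23, against 0.010 over all genes. The limma adjusted p was 0.998 for each of the 4. The 4 unadjusted calls became 2 without vector library 2, 2 without AKG library 1 and 1 without AKG library 2. Fewer dopamine neurons, less RNA per neuron and less nigra in the dissected piece cannot be told apart in tissue RNA. The libraries held transcripts of neighbouring structures in differing amounts, and their part in these values was not tested.

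The promoters of the 4 genes are shown because for each gene both AKG libraries lay below both vector libraries. Each line gives the strand of the gene, 5′ to 3′, from 120 bases before the RefSeq start to 10 bases from it (build GRCm38.p6). Capitals mark matches to the cyclic AMP response element TGACGTCA, which reads the same on both strands, or to AAAGGTCA, the element bound by receptors of the Nr4a family, on either strand.
Th: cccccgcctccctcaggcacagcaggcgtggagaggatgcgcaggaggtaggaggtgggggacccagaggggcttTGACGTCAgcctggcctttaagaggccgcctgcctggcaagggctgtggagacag
Ddc: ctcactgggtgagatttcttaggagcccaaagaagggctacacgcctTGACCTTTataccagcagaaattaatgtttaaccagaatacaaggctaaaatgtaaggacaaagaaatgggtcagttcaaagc
Slc18a2: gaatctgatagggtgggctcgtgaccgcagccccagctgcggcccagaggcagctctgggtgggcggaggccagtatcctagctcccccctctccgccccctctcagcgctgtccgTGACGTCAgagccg
Slc6a3: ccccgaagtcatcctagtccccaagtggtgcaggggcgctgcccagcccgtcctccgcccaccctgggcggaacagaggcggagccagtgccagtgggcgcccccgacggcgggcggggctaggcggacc
The Th stretch is chr7:142899986-142900115 on the minus strand, and its response element begins 45 bases before the start. That RefSeq start lies 31133 bases from the 5′ end of the deposited Th gene model. The Slc18a2 stretch is chr19:59260758-59260887 on the plus strand, and its response element begins 4 bases before the start and runs across it. The Ddc stretch is chr11:11898135-11898264 on the minus strand, at the nearer of 2 RefSeq starts to the 5′ end of the deposited gene model. AAAGGTCA lies on its opposite strand from 73 bases before that start. Which of the 2 starts dopamine neurons use was not tested, and the stretch at the other start is not shown. The Slc6a3 stretch is chr13:73536627-73536756 on the plus strand and holds neither motif. Of 32851 RefSeq promoters, 1.37% hold TGACGTCA and 0.658% hold AAAGGTCA in the same 130 bases. The matches do not overlap each other and describe letters only.

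Th (ENSMUSG00000000214, chr7:142892752-142931128), the rate-limiting enzyme of dopamine synthesis, was at 12.6 and 16.1 FPKM in the vector libraries and 10.7 and 10.4 in the AKG libraries. Both AKG libraries lay below both vector libraries, and the log2 difference was -0.40 ± 0.12 (standard error). Without vector library 2 it was -0.24. Ddc (ENSMUSG00000020182, chr11:11814101-11898144), which turns L-DOPA into dopamine, was at 9.74 and 10.6 FPKM with the vector and 8.81 and 6.91 with AKG. The groups did not overlap, and the difference was -0.34 ± 0.12, or -0.18 without AKG library 2.

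Slc18a2 (ENSMUSG00000025094, chr19:59260878-59296012), the vesicular monoamine transporter, was at 7.28 and 8.30 FPKM in the vector libraries and at 5.74 and 4.41 in the AKG libraries. The groups did not overlap, and the difference of -0.54 ± 0.13 had the smallest unadjusted limma p of the list. Slc6a3 (ENSMUSG00000021609, chr13:73536747-73578672), the dopamine reuptake transporter, was at 1.43 and 3.87 FPKM with the vector and at 0.801 and 0.615 with AKG. The vector libraries themselves differed more than any AKG library from vector library 1 in FPKM, and the difference of -1.01 ± 0.33 was -0.51 without vector library 2. On log2(FPKM + 0.1) the Slc6a3 difference was -1.62, since a pseudocount of 1 compresses low genes. Slc10a4, a vesicular protein of monoamine and cholinergic neurons named after its values were seen, was at 1.41 and 1.96 FPKM with the vector and at 1.06 and 0.981 with AKG, a difference of -0.40 ± 0.15.

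Beside the control and combined libraries, the AKG libraries held the lowest values of these genes in the series. Th was at 38.8 FPKM in both control libraries and at 14.6 and 16.6 in the combined libraries. Slc6a3 was at 24.1 and 28.5 FPKM in control and at 4.99 and 11.9 in the combined libraries, so both AKG libraries lay below all 6 others. Both AKG libraries were also lowest for Ddc, at 23.1 and 16.7 FPKM in control and 11.5 in both combined libraries. They were lowest for Slc18a2, at 10.8 and 11.3 in control and 7.40 and 6.35 in the combined libraries. These values are a description without a test. As a mean of log2(FPKM + 1) over the 8 genes of the list, the AKG libraries were at 3.65 and 3.53, the vector libraries at 3.80 and 3.97, the combined libraries at 3.97 and 4.22 and the control libraries at 4.81 and 4.72.

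**Figure D3:**
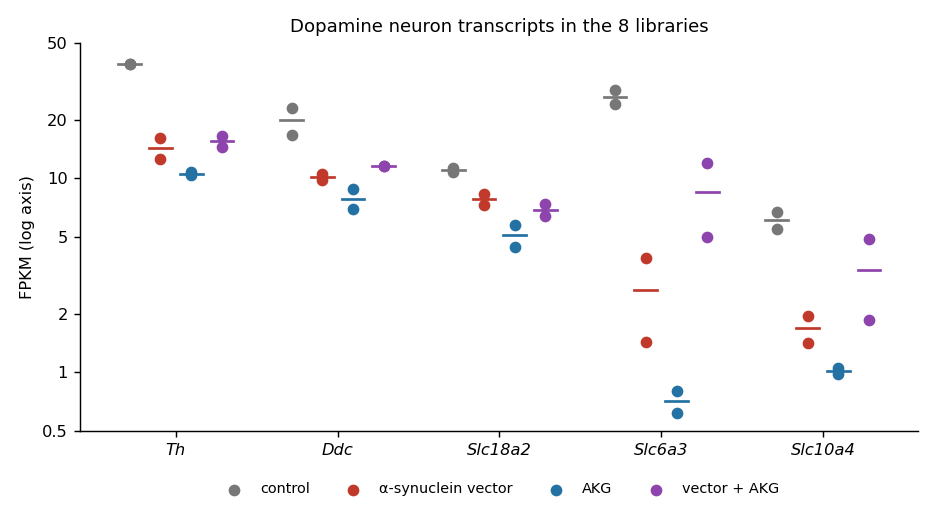
FPKM, on a log axis, of Th, Ddc, Slc18a2, Slc6a3 and Slc10a4 in each of the 8 libraries, with points for libraries and lines for the mean of 2. For each gene both AKG points lie below both α-synuclein vector points, which in turn lie below both control points.

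The cofactor enzymes on the same list overlapped between groups: Pts, Pcbd1, Spr and Qdpr, which make or recycle tetrahydrobiopterin for Th, differed by -0.11, -0.05, 0.02 and 0.07. Of 9 enzymes that break dopamine down, 3 were higher in both AKG libraries and 1 lower, against 16.5% and 13.9% of all genes, and none had an unadjusted limma p under 0.05. Their median of 0.08 was 0.01 without vector library 2, and 0.01 without AKG library 2. The oxidase gene Maob overlapped between groups, with a difference of 0.17 ± 0.11.

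Transcription factors that set the identity of dopamine neurons did not separate the groups. Of 9 transcription factors on that list 1 was higher in both AKG libraries, 0 were lower, and the median was -0.001. Nr4a2 (Nurr1), a factor that maintains dopamine neurons, was at 4.83 and 6.78 FPKM with the vector and 3.46 and 8.60 with AKG, so AKG held both the lowest and the highest library. Of 16 receptor, channel and surface genes, 3 were higher in both AKG libraries, 2 lower, and the median was -0.01. Their mean log2(FPKM + 1) was lower in both AKG libraries, at 2.99 and 3.05, than in the vector libraries, at 3.099 and 3.100. Differences ranged from -0.80 to 0.20, and 1 member, lower with AKG, had an unadjusted limma p under 0.05. The dopamine autoreceptor Drd2 was at 6.78 and 6.80 FPKM with the vector and at 7.07 and 7.49 with AKG, a difference of 0.09 ± 0.08. Ret, the receptor for glial-derived neurotrophic factor, differed by 0.03 ± 0.09, and Aldh1a1, a marker of ventral nigral dopamine neurons, by 0.18 ± 0.20. Drd2, Ret and Aldh1a1 are also transcribed outside dopamine neurons.

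Sncb and Sncg, which encode β- and γ-synuclein, differed by 0.08 ± 0.10 and 0.02 ± 0.17. Of 15 genes of inherited Parkinson's disease, 1 was higher and 2 lower without overlap, with a median of 0.04.

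Genes of AKG metabolism were close to equal in the 2 groups. Of 44 genes of the TCA cycle and of enzymes that make or use AKG, 4 were higher and 7 lower in both AKG libraries. These shares were 9.09% and 15.9%, against 16.5% and 13.9% of all genes, and the median was -0.01. All 44 had a 95% interval within -1 to 1. Ogdh, which oxidises AKG in the TCA cycle, was at 56.6 and 57.9 FPKM with the vector and 58.1 and 56.0 with AKG, a difference of -0.01 ± 0.08. Idh1, which makes AKG in the cytosol, differed by -0.04 ± 0.08, and Glud1, which makes it from glutamate, by -0.09 ± 0.08. The 2 members with an unadjusted limma p under 0.05 were lower: Gpt2, a transaminase that yields AKG, at 14.4 and 14.2 FPKM against 12.2 and 12.3, and D2hgdh, which oxidises D-2-hydroxyglutarate to AKG, at 3.64 and 3.89 against 2.98 and 3.06. Both were named after their values were seen, and neither passed after adjustment (limma adjusted p = 0.998).

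The AKG-dependent dioxygenases, 55 tested genes of the prolyl hydroxylase, histone demethylase, Tet and related families, had a median of 0.01. Without overlap 7 were higher and 10 lower, 12.7% and 18.2% against 16.5% and 13.9% of all genes. None had an unadjusted limma p under 0.05, and their differences ranged from -0.20 to 0.19. Nutrient signalling and autophagy genes lay as close together. Of 38 mTOR and AMPK genes 5 were higher and 4 lower in both AKG libraries (median 0.00), and of 44 autophagy genes 3 were higher and 2 lower (median 0.01). Rheb, the activator of mTOR complex 1, was at 17.5 and 16.8 FPKM with the vector and 16.6 and 17.3 with AKG. Sqstm1, the autophagy receptor p62, was at 204 and 195 against 201 and 197. For Map1lc3b, which encodes LC3B, the 95% interval of the difference was -0.29 to 0.26.

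**Figure D4:**
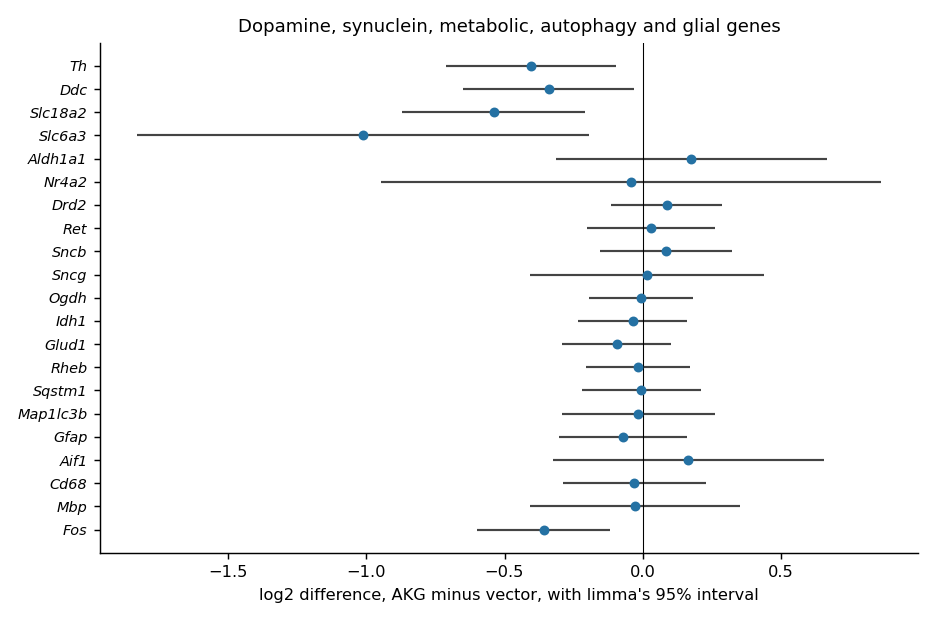
Difference between AKG and the α-synuclein vector (points) with limma's 95% interval (lines), in log2(FPKM + 1), for genes of dopamine neurons, synucleins, AKG metabolism, mTOR and autophagy, glia and activity. The intervals of Th, Ddc, Slc18a2, Slc6a3 and Fos lie below 0 before adjustment over all genes, and those of the others include 0.

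Most glial markers overlapped between the groups, and some did not. The astrocyte identity list had 0 of 20 genes higher and 4 lower in both AKG libraries, against 16.5% and 13.9% of all genes. Gfap, the astrocyte filament protein, was at 45.3 and 44.2 FPKM with the vector and at 39.8 and 45.7 with AKG. The microglial genes Aif1 and Cd68 differed by 0.17 ± 0.20 and -0.03 ± 0.10, and the myelin gene Mbp by -0.03 ± 0.15. Among disease-associated microglia genes 2 of 18 had an unadjusted limma p under 0.05, both higher with AKG and both named after their values were seen. Lyz2, which encodes lysozyme, was at 8.73 and 6.09 FPKM with the vector and 10.5 and 13.6 with AKG, a difference of 0.64 ± 0.19. Tyrobp, a signalling adaptor of microglial receptors, was at 17.4 and 12.9 against 19.0 and 21.9, a difference of 0.42 ± 0.15. The groups overlapped for neither gene, and the median of the list was 0.01. Ltc4s, on the homeostatic microglia list, was at 0.855 and 1.28 FPKM against 2.14 and 2.21.

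Interferon response genes were higher in both AKG libraries in 5 of 18 cases and lower in 1, with a median of 0.14. These shares were 27.8% and 5.56%, against 16.5% and 13.9% of all genes. Vector library 1 was the lowest of the 4 libraries for 15 of the 18. Ifit1 was at 1.28 and 1.46 FPKM with the vector and 1.78 and 2.33 with AKG, and Ifit3b at 2.84 and 3.03 against 3.88 and 3.63. Ifit2, of the same family of interferon-induced RNA-binding proteins, lay the other way at 5.08 and 5.55 against 4.75 and 3.85. The list median was -0.005 without AKG library 2 and 0.03 without vector library 1, and the list mean overlapped between groups. Calprotectin genes of neutrophils were lower with AKG: S100a8 was at 2.97 and 2.63 FPKM against 0.704 and 1.45, and S100a9 at 3.53 and 4.51 against 1.35 and 2.37. Neither passed after adjustment (limma adjusted p = 0.998 for both).

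Immediate early genes, which neuronal activity induces, and glucocorticoid response genes had more members lower than higher with AKG, though none passed the adjusted test. Of 28 immediate early genes 9 were lower in both AKG libraries and 0 higher, against 13.9% and 16.5% of all genes, with a median of -0.07. The list means of the libraries overlapped between groups, and the median was -0.04 without AKG library 1. Fos, a transcription factor induced by activity, was at 3.43 and 3.53 FPKM with the vector and 2.58 and 2.41 with AKG, a difference of -0.36 ± 0.10. Arc, a synaptic activity gene, was at 8.91 and 8.09 against 7.30 and 7.09. Dusp1, a phosphatase gene induced by both activity and glucocorticoids, was at 9.90 and 7.93 against 7.81 and 6.87. Of 23 glucocorticoid response genes 6 were lower and 2 higher, with a median of -0.10. Sult1a1, a sulfotransferase, was at 8.16 and 7.58 FPKM against 3.71 and 5.56, and Plin4, a lipid droplet protein, at 2.94 and 4.37 against 1.70 and 2.13. Sgk1, a kinase of the same list, was higher with AKG at 14.2 and 13.03 FPKM against 10.3 and 10.7. The glucocorticoid median was -0.03 without vector library 1.

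Regulators of cell death lay both ways. Of 21 tested genes 6 were higher and 6 lower in both AKG libraries, and the median was 0.03. Each share was 28.6%, against 16.5% and 13.9% of all genes. Bax and Bad, which promote release of cytochrome c, were higher: Bax was at 16.4 and 12.9 FPKM with the vector and 17.3 and 19.2 with AKG, and Bad at 15.3 and 12.7 against 15.8 and 18.5. Bbc3, which encodes the p53 target Puma, was lower at 3.16 and 3.61 FPKM against 2.40 and 2.31, a difference of -0.38 ± 0.11. Cholesterol synthesis genes had 6 of 23 lower and 3 higher, among them Nsdhl, Msmo1 and Fdft1 with differences of -0.20, -0.17 and -0.15, and a list median of -0.01.

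Vascular genes were also mixed. Mfsd2a, the endothelial transporter that carries docosahexaenoic acid into the brain, was at 15.4 and 17.4 FPKM with the vector and at 11.1 and 12.1 with AKG. Both AKG libraries lay below both vector libraries, and the difference was -0.46 ± 0.10. On the endothelial list of 26 genes 7 were higher and 2 lower in both AKG libraries, against 16.5% and 13.9% of all genes. Vwf, the clotting factor carrier, was at 2.20 and 1.88 FPKM with the vector and 3.18 and 2.74 with AKG, and the thyroid hormone transporter Slco1c1 at 8.22 and 12.6 against 13.1 and 14.9. All 8 tested red cell genes lay above 0, and AKG library 2 was the highest of the 4 libraries for all 8. The list median of 0.13 was 0.05 without that library, and the list means overlapped between groups. Hbb-bt, a β-globin, was at 9.10 ± 3.15 FPKM (SD, n = 2) with the vector and 17.6 ± 6.28 with AKG, without overlap. Hbb-bs, the more abundant β-globin, overlapped between groups, with a difference of 0.08 ± 0.26 that was -0.28 without AKG library 2. The oligodendrocyte precursor list had 6 of 18 higher and 3 lower, with a median of 0.03, and its transcription factor Olig2 was at 25.4 and 22.6 FPKM against 26.8 and 27.6.

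Markers of other brain structures varied between the groups and within them. Of 17 thalamic and midbrain excitatory neuron genes, 9 were higher and 2 lower in both AKG libraries, against 16.5% and 13.9% of all genes. Their median was 0.25. Gbx2, a thalamic transcription factor, was at 9.85 and 11.1 FPKM with the vector and 12.5 and 13.8 with AKG, and Zic1, a zinc finger transcription factor, at 38.1 and 37.2 against 42.5 and 52.5. Prkcd, a kinase abundant in thalamus, was at 88.0 and 54.6 against 97.1 and 91.5, so most of its difference lay in vector library 2. Foxb1, a mammillary and thalamic factor, lay the other way at 4.07 and 5.39 FPKM against 3.47 and 1.33. The median was 0.10 without AKG library 2 and 0.13 without vector library 2. Postsynaptic scaffold genes had 12 of 28 higher (42.9%) and 3 lower (10.7%), with a median of 0.06 that was 0.03 without AKG library 1. Shank2 was at 7.85 and 7.46 FPKM with the vector and 9.04 and 8.72 with AKG, and Shank3 at 37.2 and 28.0 against 40.4 and 41.6. Baiap2, another scaffold, was lower at 8.89 and 10.8 against 8.43 and 6.67.

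Hypothalamic neuropeptide genes had 0 of 14 above 0 and a median of -0.42. In both AKG libraries 5 were lower (35.7%, against 13.9% of all genes). Pmch, which encodes melanin-concentrating hormone, was at 167 and 208 FPKM with the vector and 151 and 146 with AKG. Hcrt, which encodes orexin, was at 224 and 167 against 149.6 and 166, and Hdc, the enzyme of histamine synthesis, at 5.32 and 5.02 against 4.42 and 3.34. The larger differences came from AKG library 2. Vasopressin (Avp) was at 231 and 305 FPKM with the vector and at 425 and 27.5 with AKG, oxytocin (Oxt) at 315 and 282 against 431 and 66.0, and Pomc at 33.3 and 14.4 against 22.4 and 2.06. Without that library the list median was 0.05.

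All 21 tested choroid plexus genes lay above 0, with a median of 0.89. Vector library 1 was the low one: Ttr, which encodes the transthyretin of choroid plexus, was at 44.0 FPKM there, at 1959 in vector library 2 and at 1334 and 2466 in the AKG libraries. The channel subunit Kcne2 was at 0.123 and 6.53 FPKM with the vector and 6.70 and 12.7 with AKG. Without vector library 1 the list median was 0.01. The part of these neighbouring structures in the dopamine, synaptic and activity gene values was not tested.

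**Figure D5:**
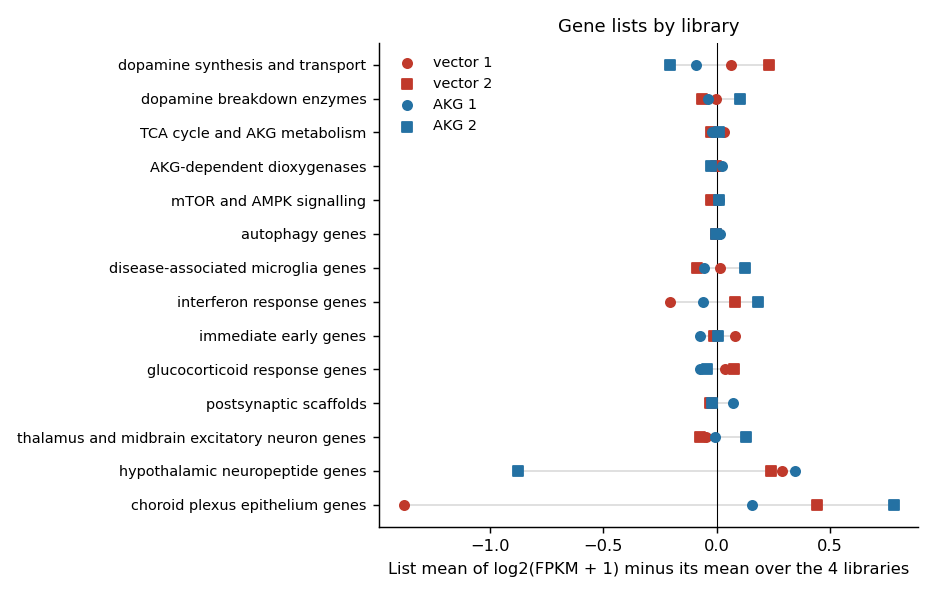
Mean log2(FPKM + 1) of 14 gene lists in each of the 4 libraries, as the deviation from the list's mean over the 4. Circles are library 1 and squares library 2 of each group. The dopamine synthesis list has both AKG libraries to the left of both vector libraries, the hypothalamic list has AKG library 2 apart on the left, the choroid plexus list has vector library 1 apart on the left, and the AKG metabolism, dioxygenase, mTOR and autophagy lists lie close to 0.

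Lists of housekeeping and organelle genes had medians near 0, though some varied within groups. Of 80 cytosolic ribosomal protein genes 3 were higher and 16 lower in both AKG libraries, with a median of -0.02. These shares were 3.75% and 20%, against 16.5% and 13.9% of all genes. Many of these genes have pseudogenes that can share their reads. Of 74 nuclear genes of the respiratory chain and ATP synthase 3 were higher and 4 lower, with a median of 0.05. AKG library 2 was the highest of the 4 libraries for 58 of the 74, and the median ranged from -0.05 to 0.17 with 1 library left out. The 13 protein genes of the mitochondrial genome differed by -0.59 to 0.30. Their mean log2(FPKM + 1) was 9.91 and 9.45 in the vector libraries and 9.39 and 9.96 in the AKG libraries. Lysosomal genes had 9 of 40 higher and 3 lower, with a median of 0.05. Proteasome subunits had 4 of 32 higher and 6 lower, and genes of the unfolded protein and integrated stress responses 4 of 29 higher and 3 lower. Circadian clock genes had 4 of 21 higher and 1 lower, and myelin genes 2 of 27 higher and 1 lower, each list with a median of 0.03.

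Over the 53 lists with at least 4 tested genes, 45 had a median within -0.1 to 0.1. The library means of 8 of these 53 lists did not overlap between groups. Over single genes, 16.5% were higher and 13.9% lower without overlap, so lists did not separate the groups more often than single genes did. For 3 of the 8 lists the groups differed by more than both within-group gaps. Those 3, all with a lower mean with AKG, were dopamine synthesis and transport, the dopamine neuron receptor, channel and surface genes, and the glucocorticoid response. The receptor, channel and surface list had 8 genes above 0 and 8 below, a median of -0.01 and a lowest member at -0.80, so its lower mean was not a list-wide shift. The rest of the 8, all with a higher mean with AKG, were postsynaptic scaffolds, thalamic and midbrain excitatory neuron genes, mTOR and AMPK, autophagy and lysosomal genes.

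Among single genes, the smallest unadjusted p belonged to Alb (albumin, ENSMUSG00000029368, chr5:90460897-90476602). It was at 2.43 and 2.54 FPKM in the vector libraries and at 0.232 and 0.277 in the AKG libraries, the latter from 10 and 11 reads. The difference was -1.47 with a 95% interval of -1.80 to -1.14 (limma adjusted p = 0.631), and -3.24 by voom on the reads, where a pseudocount of 1 FPKM does not enter. The control libraries held 1.53 and 0.952 FPKM and the combined libraries 0.703 and 1.03, so the vector libraries were the highest and the AKG libraries the lowest of the series. Cebpzos, Ccdc58 and Lhx1os differed by -0.43, -0.36 and -0.55. Cebpzos and Lhx1os are named for opposite-strand neighbours, from whose reads theirs cannot be told apart if counting ignored strand. The mitochondrial glycine transfer RNA mt-Tg, a short gene, differed by -0.47.

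On the higher side, Spsb2, a substrate adaptor of a ubiquitin ligase, was at 3.89 and 3.34 FPKM with the vector and 5.79 and 6.23 with AKG, a difference of 0.61 ± 0.10. Pcbd2, a pterin dehydratase, was at 17.8 and 16.1 against 23.2 and 24.4. Nt5dc2 differed by 0.56 ± 0.10, Arpc1b, a subunit of the actin-nucleating Arp2/3 complex, by 0.49 ± 0.10, and Ifi30, a lysosomal thiol reductase of antigen presentation, by 0.64 ± 0.13. Cox8b, a subunit of cytochrome c oxidase known from muscle and brown fat, was at 0.150 and 1.64 FPKM with the vector and 4.98 and 7.87 with AKG. It was at 30.6 and 1.06 in the control libraries and 0.858 and 14.3 in the combined libraries, so it varied as much within other groups.

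Several of the smallest p-values rest on few reads or shared sequence. Of the 50 genes with the smallest p, 14 were shorter than 200 bases (1.27% of tested genes), 22 had a mean under 30 reads (4.93%) and 18 were pseudogenes (4.37%). Mir1968 and Scarna17 had 0 reads in both vector libraries and 2 and 3 in the AKG libraries, and the precursors Mir3072 and Mir453 were as sparse. Srp54b, of the signal recognition particle, had 317 and 384 reads with the vector and 31 and 57 with AKG, and its neighbours Srp54a and Srp54c are near-identical, so the split is uncertain. The 3 together had 933 and 715 reads against 451 and 477. For the ribosomal protein genes Rps27 and Rps27rt the opposite differences of -0.87 and 1.53 largely cancel in the sum, with 3584 and 3073 reads against 2872 and 3247. Gapdh, which has many pseudogenes, was at 1.44 FPKM in both vector libraries, 2.25 in AKG library 1 and 32.0 in AKG library 2.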

How the data were processed

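Per the labels' protocols, the authors purified total RNA on columns and prepared libraries with a SMARTer mRNA kit. Per the file headers, their deposited table gives FPKM for every gene and library, with gene lengths and coordinates. The submitters' processing notes name the builds GRCm38 and mm10. The sources used here do not name the aligner, the counter or the strand setting. Multiplied by gene length, 100% of the FPKM values gave whole reads within 0.01, from which depth and read counts were taken.

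Genes whose 8-library mean reached 1 FPKM were put on log2(FPKM + 1) and fitted on the 4 AKG and vector libraries alone with limma 3.58.1 in R 4.3.3 (eBayes, mean-variance trend; two-sided; Benjamini-Hochberg over 13716 genes, threshold 0.05). Residual degrees of freedom were 2 and prior ones 3.55 (median), and the fit was tested on simulated data, where false calls fell mainly in genes with few reads. Because the unit is FPKM, a model of the recovered reads (voom) was run only as an alternative. Lists are described by counts and medians, without a set test. Genes named are the 10 per direction with the smallest unadjusted p among those without overlap (leaving out Gm, Rik and pseudogenes), up to 3 members with the smallest p of each list whose non-overlapping share is at least 1.5 times that of all genes, and a set of dopamine, synuclein, metabolic, autophagy and glial genes. Avp, Oxt, Pomc, Kcne2, Prkcd, Rps27, Rps27rt, Gapdh, Slc10a4, Gpt2, D2hgdh, Lyz2, Tyrobp and Ltc4s were chosen after their values were seen, and so were the cofactor enzymes. Some genes of the set are not reported here. The comparison, its lists and its named genes were chosen with earlier results of these data known. The 16 alternatives were other library sets, filters, pseudocount, scalings, no trend, the replicate block, removal of a length trend, voom, protein-coding genes only and leaving out each library. Promoters are from RefSeq (GRCm38.p6). Python 3.11.15, pandas 2.3.3 and matplotlib 3.10.9 were used for tables and figures.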

Additional observations from a re-analysis of the deposited data

How the results depend on the processing

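Of 89 named genes, 70 kept the sign of their difference under every alternative that tested them (14 to 16 of the 16), among them Th, Ddc, Slc18a2, Slc6a3, Alb and Fos, and 19 changed sign in at least 1. The medians of 12 of 53 lists kept their sign throughout. The count of genes called after adjustment was 0 in the 12 alternatives that kept all 4 libraries, and leaving out a library gave 0 to 2: mt-Ti and Ube2n-ps1 without vector library 1, Gapdh without AKG library 1 and Gm12411 without AKG library 2. Gapdh then differed by 3.76. Its adjusted p over the alternatives was 0.0118 to 1.0. The count at an unadjusted p under 0.05 was 469. It was 161 with all 8 libraries in the fit, 307 without the control libraries, 1084 with no filter and 221 at a minimum of 5 FPKM, and the last 2 test more or fewer genes. It was 428 to 782 with 1 library left out, 707 without vector library 1 and 782 without AKG library 1. The causes were not tested.

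Over genes, same-numbered libraries did not deviate together (correlation -0.068). That value was the same for both pairs, so it is a single contrast and cannot decide whether the numbers pair the samples. With the replicate block the unadjusted count was 430 and the adjusted count 0. Quantile normalization gave 241 higher and 232 lower genes at an unadjusted p under 0.05, against 273 and 196.

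Signs that changed belong to differences near 0 or to genes that 1 library decides. Ogdh was at 0.0012 with the length trend removed, and Sncg at -0.013 with quantile normalization and -0.00067 with the length trend removed. With 1 library left out the difference ranged from -0.032 to 0.020 for Ogdh, -0.24 to 0.27 for Sncg, -0.0013 to 0.17 for Sncb and -0.041 to 0.10 for Ret. The range was -0.59 to 0.51 for Nr4a2, -0.075 to 0.43 for Aldh1a1, -0.068 to 0.40 for Aif1, -0.13 to 0.067 for Cd68 and -0.17 to 0.028 for Gfap. It was -0.18 to 0.13 for Mbp, -0.091 to 0.019 for Idh1, -0.044 to 0.010 for Rheb, -0.036 to 0.027 for Sqstm1, -0.12 to 0.091 for Map1lc3b and -0.28 to 0.44 for Hbb-bs. Ttr ranged from -0.11 to 5.33, Avp from -3.22 to 0.68, Oxt from -2.16 to 0.53 and Pomc from -2.91 to 0.026. Where 1 library of a group remains, its spread is taken from the other group. Depth limits short genes most, since few reads take them past 1 FPKM.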
